A study of Hydra vulgaris with 12 samples.

Results

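Of 16988 predicted mRNAs measured in regenerating Hydra tissue, 155 (0.912%) were high at 4, 6 and 12 h after bisection and low before and after, at 0, 2 and 48 h. They were chosen by their own values: each library was scaled to a common median, the 2 libraries of a time were averaged as log2(scaled RPKM + 1), and the lowest mean of 4, 6 and 12 h had to exceed the highest mean of 0, 2 and 48 h by at least 1. RPKM is a read number per transcript length and per mapped reads of the library. The step up between 2 and 4 h and the step down between 12 and 48 h are therefore given below as descriptions, with no test. The choice kept 0, 2 and 48 h below the middle times, but it did not fix the differences among 4, 6 and 12 h or among 0, 2 and 48 h, and those are tested.

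The animals were Hydra of strain 105, per the labels Hydra magnipapillata and filed under Hydra vulgaris, starved for 1 day and carrying a young bud. They were cut across the upper body column, and the tissue next to the cut, regions R2 and R3, was taken after 0, 2, 4, 6, 12 or 48 h. Each time has 2 samples, each a pool of 50 to 100 animals, and the labels give no strain, allele or agent that differs between the times. There is no group of intact animals held for equal times, so bisection and time kept cannot be told apart.

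Hydra is a freshwater cnidarian polyp that regrows a head from its body column. Head regrowth is known to begin with closure of the wound by epithelial cells, followed by the setting up of a new organizer at the cut end, where the secreted ligand Wnt3 is a leading signal, and later by the forming of tentacles and mouth. Genes that are switched on by injury and off again before the head is complete are one general feature of such a course. None of the 155 transcripts is paired with a gene name in the table or in the list of RefSeq genes of another Hydra assembly, so they are called by their identifiers and no function is given for them. No sequence of a member was analysed here. For the same reason no pathway list and no list of cell type markers could be counted, and the labelled tissue could not be checked against markers. In these whole pieces of tissue, fewer cells of a type and less RNA per cell cannot be told apart.

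The level of the group in each library shows the shape. The median member stood at 26.5 and 20.2 scaled RPKM in replicates 1 and 2 of 0 h, at 25.9 and 33.4 at 2 h, at 122 and 119 at 4 h, at 137 and 132 at 6 h, at 124 and 99.3 at 12 h, and at 31.2 and 24.0 at 48 h. All 6 libraries of the middle times lay far above the other 6. The median over all predicted mRNAs stayed between 8.77 and 9.97 scaled RPKM in the 12 libraries, which the scaling to a common median largely fixes. In 147 of the 155 members every library of 4, 6 and 12 h was above every library of 0, 2 and 48 h, against 3.65% of all predicted mRNAs. The rule used the same contrast, so this count only describes how cleanly the libraries separated.

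**Figure D1:**
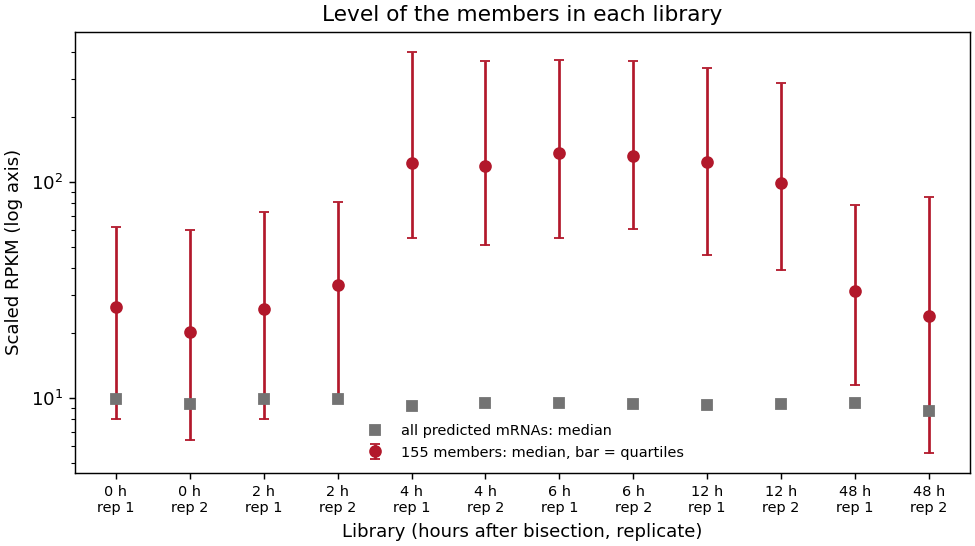
Scaled RPKM on a log axis in the 12 libraries, ordered by hours after bisection and replicate; circles are the median of the 155 members with bars from the lower to the upper quartile, and squares are the median of all predicted mRNAs. The members' medians lie between 20.2 and 33.4 at 0, 2 and 48 h and between 99.3 and 137 at 4, 6 and 12 h.

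**Figure D2:**
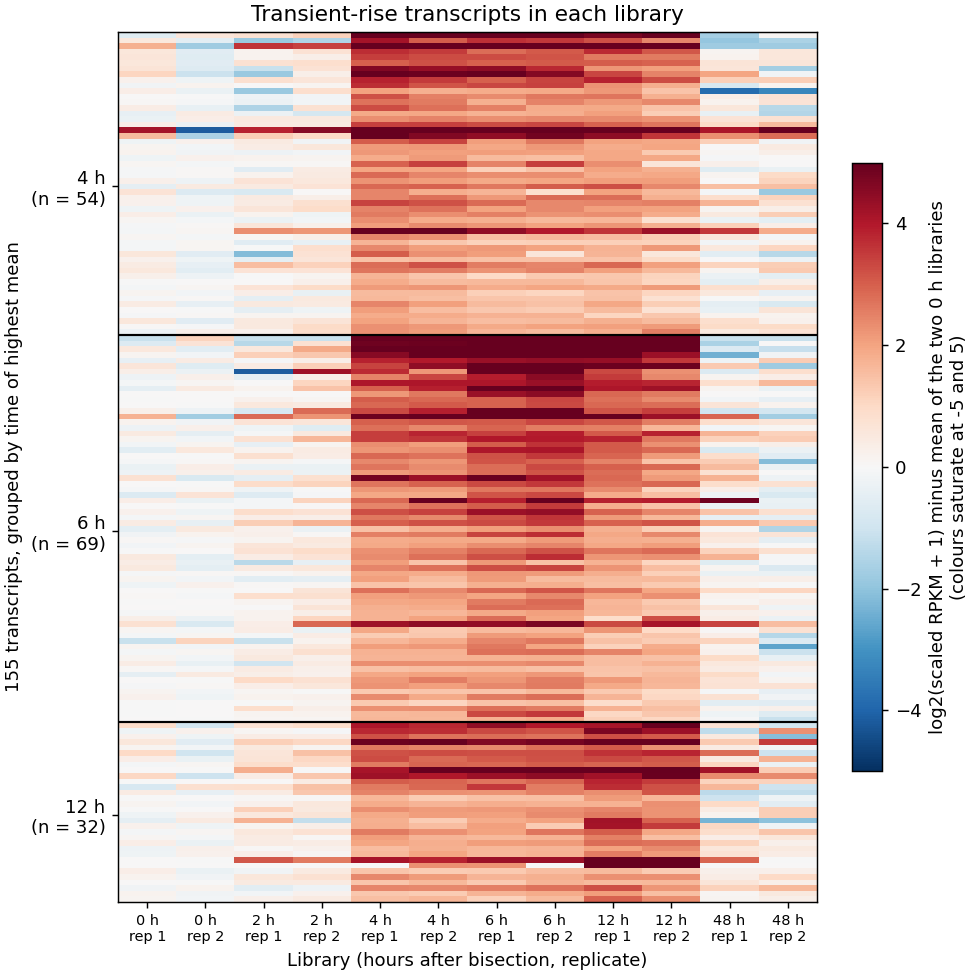
Each row is 1 of the 155 members and each column a library; colour is log2(scaled RPKM + 1) minus the mean of the 2 libraries of 0 h, and rows are grouped by the time of their highest mean (4 h with 54 rows, 6 h with 69 and 12 h with 32). The middle 6 columns are red in nearly all rows, and single rows deviate in 1 library of 2 h or 48 h.

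The size of the step varied widely among members. The difference of the rule had a median of 1.40 on the log2 scale, with quartiles of 1.15 and 1.94 and a maximum of 6.50. It reached 1.5 in 66 members, 2 in 33 and 3 in 8. The member just inside the cutoff was XM_002160531.2 with a difference of 1.003, and the predicted mRNA just outside it was XM_002155155.1, at 0.9999. XM_002160531.2 stood at 25.9 and 25.7 scaled RPKM at 0 h, 27.3 and 28.0 at 2 h, 83.9 and 81.1 at 4 h, 89.2 and 96.1 at 6 h, 59.4 and 53.7 at 12 h, and 24.9 and 11.3 at 48 h. Its libraries of 4 and 6 h were the highest, and those of 12 h lay between them and the rest. XM_002155155.1 went from 48.6 and 51.1 scaled RPKM at 0 h to 204 and 236 at 6 h and 275 and 226 at 12 h, and was kept out by its level of 113 and 69.3 at 48 h.

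Most members were not rare transcripts, which the rule favours, as a transcript near 0 at 4, 6 and 12 h cannot pass it. Their mean at 0 h had a median of 24.0 scaled RPKM, and 11 of them lay below 1 and 25 at 100 or more. The median over all predicted mRNAs was 9.81, but it includes transcripts that were near 0 throughout. Averaged over the 6 middle libraries, 89 members reached 100 scaled RPKM and 17 reached 1000, while 4 stayed below 10. Together the 155 held between 1.26% and 1.74% of the summed RPKM of a library at 0, 2 and 48 h, and between 6.85% and 10.2% at 4, 6 and 12 h. Of the identifiers, 61.9% belonged to the older XM_002 number series, against 53.2% of all predicted mRNAs.

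A single transcript, XM_002168126.2, made up much of that share. It was the most abundant of all 17353 transcripts in every library of 4, 6 and 12 h and ranked between 14 and 54 in the other libraries. Its scaled RPKM was 2455 and 2792 at 0 h, 2649 and 5540 at 2 h, 43136 and 42707 at 4 h, 43001 and 52574 at 6 h, 40172 and 36390 at 12 h, and 4665 and 7988 at 48 h. Its mean at 4 h was 16.4 times that at 0 h, and by 48 h it was down to 2.41 times. In the middle times this transcript alone held from 2.84% to 3.87% of the summed RPKM of a library.

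**Figure D3:**
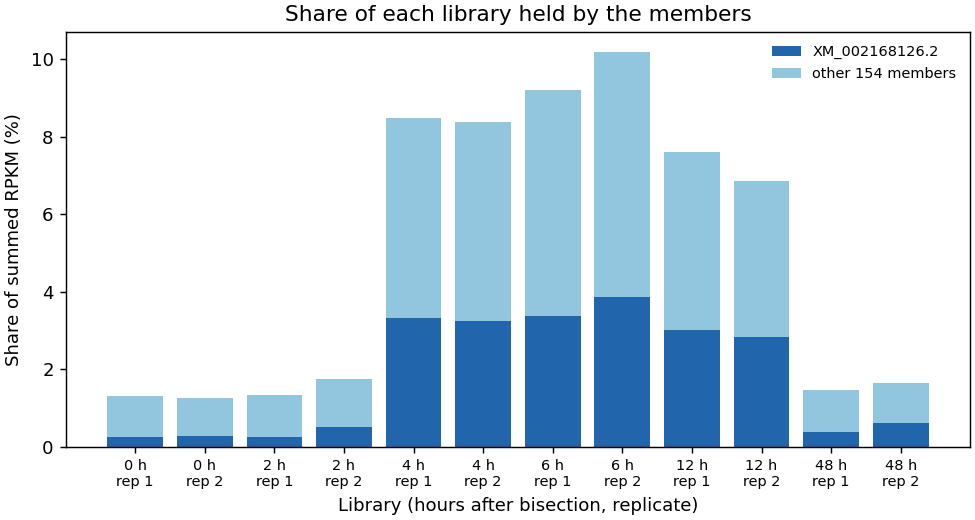
Share of the summed RPKM of each library, in percent, held by XM_002168126.2 (dark) and by the other 154 members (light), in the 12 libraries ordered by hours after bisection and replicate. The bars reach 6.85% to 10.2% at 4, 6 and 12 h and stay at or below 1.74% elsewhere.

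The second most abundant member, XM_004207496.1, had the steeper course. It stood at 121 and 281 scaled RPKM at 0 h, 316 and 412 at 2 h, 10157 and 11756 at 4 h, 9940 and 10820 at 6 h, 5037 and 5899 at 12 h, and 56.0 and 199 at 48 h. Its mean at 4 h was 54.6 times that at 0 h, and its 12 h libraries lay below both those of 4 h and of 6 h.

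The 2 largest differences belonged to transcripts that were nearly silent outside the middle times. XM_004209136.1 was below 0.001 scaled RPKM in 0 h replicate 1, at 3.63 in 0 h replicate 2, and below 0.001 in all 4 libraries of 2 and 48 h. It stood at 276 and 271 at 4 h, 382 and 353 at 6 h, and 265 and 142 at 12 h. XM_002162530.2 had 0.853 and 3.82 scaled RPKM at 0 h, 0.139 and 4.02 at 2 h, 85.5 and 89.0 at 4 h, 198 and 262 at 6 h, 186 and 170 at 12 h, and below 0.001 and 2.04 at 48 h. Both were thus strongly expressed from 4 to 12 h and at a few scaled RPKM or fewer before and after.

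The rule keeps transcripts that are already high at 4 h and still high at 12 h, so the course within the rise is described here only for transcripts chosen that way. On the log2 scale the median member had reached 92.7% of its highest rise over 0 and 2 h at 4 h, with a lower quartile of 75%. At 12 h the median member still held 79.6% of it, with quartiles of 67.8% and 96.2%. By the time of the highest mean, 54 members peaked at 4 h, 69 peaked at 6 h and 32 peaked at 12 h. Each replicate alone gave the same peak time as the other in 103 of the 155. That time was 4 h in 33, 6 h in 53 and 12 h in 17. Few differences among the middle times passed the tests given below, so the groups only describe the order of the means. The median members of the 3 peak groups started alike, between 15.7 and 28.7 scaled RPKM in the libraries of 0 h.

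Between 4 and 6 h, limma found 2 members higher and none lower, where a call needed a Benjamini-Hochberg adjusted p below 0.05 over all 14283 transcripts tested and a log2 difference of at least 1. That is 1.29% of the members, against 0.133% of all transcripts tested called higher and 0.056% called lower. At an unadjusted p below 0.05 there were 26 members in either direction (16.8%, against 5.87% of all transcripts tested). A count of 2 is too small to set against the share of all transcripts. XM_002159324.2 went from 114 and 116 scaled RPKM at 4 h to 366 and 433 at 6 h and back to 76.0 and 93.6 at 12 h, with 36.0 and 36.9 at 0 h, 40.6 and 40.9 at 2 h, and 31.2 and 23.4 at 48 h. Its libraries of 6 h stood apart from all others. It rose by 1.79 on the log2 scale from 4 to 6 h (SE 0.17, limma adjusted p = 0.00665). XM_002154320.2 was below 0.001 RPKM in all 6 libraries of 0, 2 and 48 h, at 3.53 and 5.19 scaled RPKM at 4 h, 18.9 and 21.7 at 6 h, and 6.24 and 5.01 at 12 h. It rose by 2.00 from 4 to 6 h (SE 0.27, limma adjusted p = 0.0295). For so low a transcript the agreement at 0 limits what its SE says of the spread at 6 h. With a replicate block its call was lost (limma adjusted p = 0.0597). The call of XM_002159324.2 did not hold without replicate 1 of 4 h (adjusted p = 0.0902), replicate 2 of 4 h (0.0694) or replicate 2 of 6 h (0.123). That of XM_002154320.2 did not hold without any 1 of the 10 libraries of 0 to 12 h, at adjusted p from 0.0525 to 0.393, nor with a pseudocount of 0.1 (0.251) or a filter at 5 RPKM (0.0690).

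From 6 to 12 h, limma found 8 members lower (5.16%, against 1.37% of all transcripts tested) and 3 higher (1.94%, against 1.05%). The median member differed by −0.30 on the log2 scale, against −0.03 over all transcripts tested, and 108 of 155 lay lower at 12 h. The difference between the members and the other transcripts was not tested. XM_002159324.2 fell by 2.23 (SE 0.17, limma adjusted p = 5.78e-04) and XM_002154320.2 fell by 1.69 (SE 0.27, adjusted p = 0.0160). In the opposite direction, XM_004213166.1 stood at 0.0247 and 3.88 scaled RPKM at 4 h, 3.71 and below 0.001 at 6 h, and 71.8 and 61.7 at 12 h, and was below 0.001 at 0, 2 and 48 h. Only its libraries of 12 h were clearly expressed, and it met the rule through single libraries of 4 and 6 h. Its rise from 6 to 12 h was 4.96 (SE 0.79, limma adjusted p = 0.0161). The agreement near 0 at 0, 2 and 48 h lowers this SE, while its replicates differed widely at 4 and 6 h. The adjusted p is limited in the same way. XM_004206893.1 had 2.99 and 2.36 scaled RPKM at 4 h, 3.73 and 1.76 at 6 h and 19.5 and 12.1 at 12 h, and at most 1.35 elsewhere. It rose by 2.18 from 6 to 12 h (SE 0.46, adjusted p = 0.0369).

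The 11 calls from 6 to 12 h depended on single libraries. Leaving out replicate 1 or 2 of 6 h gave 5 or 1, leaving out replicate 1 or 2 of 12 h gave 7 or 6, and leaving out either library of 48 h gave 17. XM_002159324.2 kept its fall without any 1 library. XM_002154320.2 lost its fall without either library of 6 h (adjusted p = 0.110 and 0.138) or replicate 2 of 12 h (0.0627). XM_004213166.1 lost its rise from 6 to 12 h without 6 h replicate 2 (0.0964) or either library of 12 h (0.0625 for both), and XM_004206893.1 lost its own without any 1 of the libraries of 0 to 12 h (0.0532 to 0.240) or with no filter (0.0592). With a pseudocount of 0.1 these calls of XM_002154320.2 (0.101), XM_004213166.1 (0.0912) and XM_004206893.1 (0.299) were lost as well, and with one of 5 the rise of XM_004206893.1 was 1.41. Beside these stands a gap between the replicates themselves: 43 of 155 members were higher in 12 h replicate 2 than in replicate 1, against 48.4% of the tested predicted mRNAs, and 108 of 155 were higher in 6 h replicate 2 than in replicate 1, against 52.3%. The part of this gap in the results was not tested.

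Across the whole middle phase, from 4 to 12 h, limma called 1 member higher (0.645%, against 0.329% of all transcripts tested) and none lower (against 0.378%). It was XM_004213166.1, with a log2 difference of 4.92 (SE 0.79, limma adjusted p = 0.0408), under the limit of its SE given above. This call was lost without any 1 of the libraries of 0, 2, 4 or 12 h (adjusted p from 0.0609 to 0.301), with a pseudocount of 0.1 (0.134), with no filter (0.0575) or with weights per library (0.0561). It was also lost with a replicate block (limma adjusted p = 0.0698). A single call is too few to set against the share of all transcripts. The median member differed by −0.21 between 12 and 4 h, against −0.02 over all transcripts tested. At 12 h, 105 of 155 members lay lower than at 4 h. Of the members, 32 had an unadjusted p below 0.05 in this comparison (20.6%, against 16.0% of all transcripts tested). A sustained counterpart, 127 predicted mRNAs that pass the same cutoff with 48 h counted among the high times, had a median of 0.35 and 3 calls higher; the difference between the 2 lists was not tested.

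**Figure D4:**
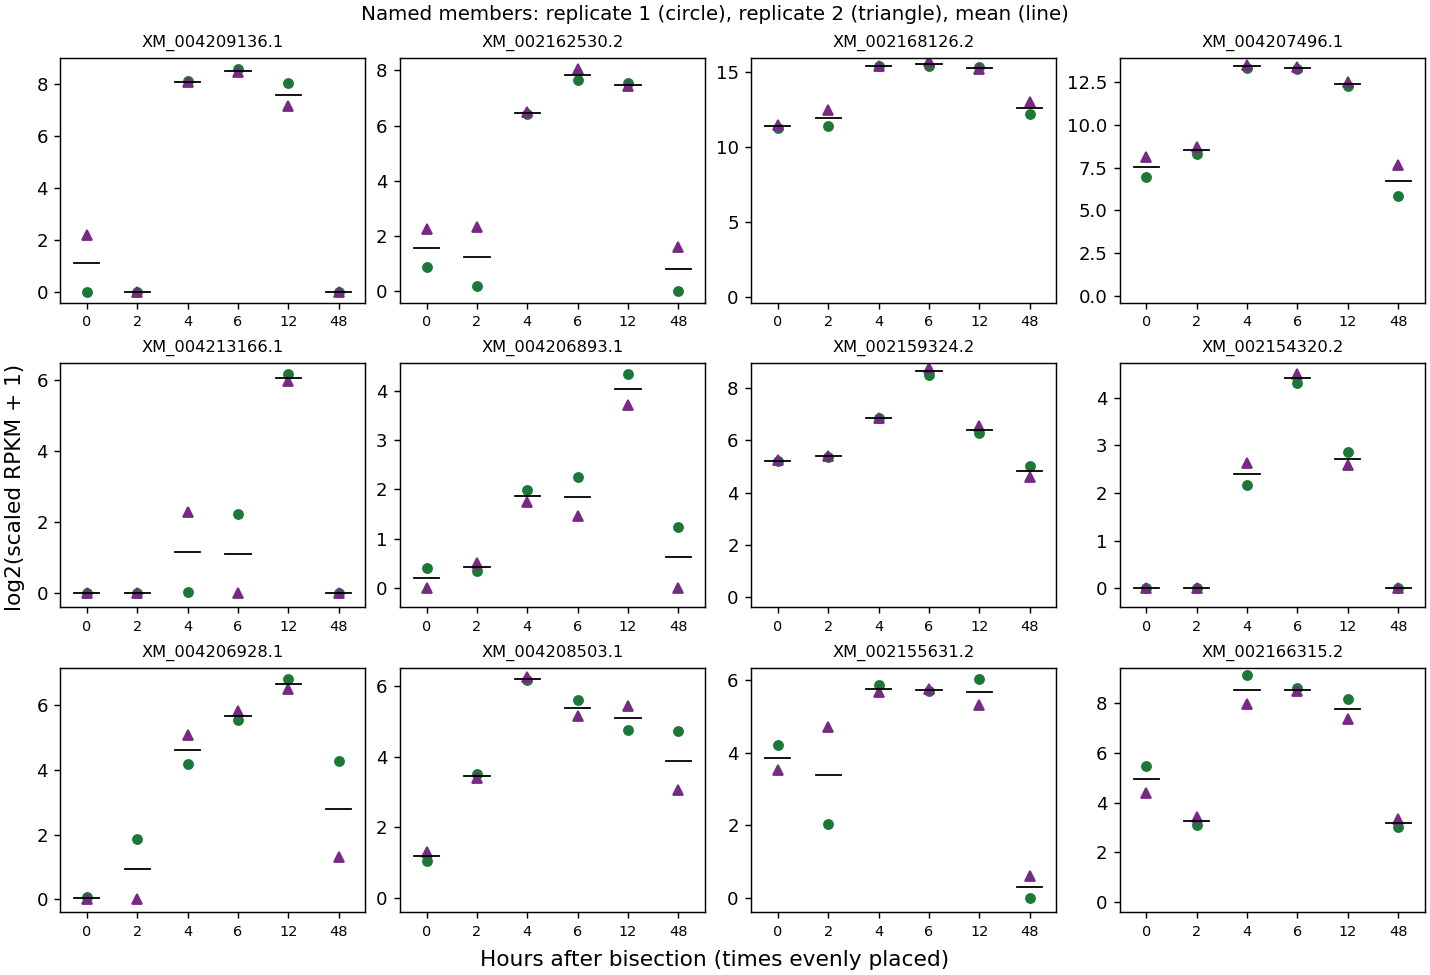
log2(scaled RPKM + 1) at 0, 2, 4, 6, 12 and 48 h after bisection in 12 named members; circles are replicate 1, triangles replicate 2 and lines the mean of both, and the times are evenly placed. XM_002159324.2 and XM_002154320.2 peak at 6 h alone, XM_004213166.1 and XM_004206893.1 at 12 h, and XM_004208503.1 is already above its 0 h level at 2 h and again at 48 h.

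At 2 h, before the step, limma called none of the 155 members different from 0 h, against 0.133% of all transcripts tested called higher and 0.035% lower. With shares this low, the absence of calls cannot be read as a result about the members. The rule also capped both times, which limits how far they could differ. At an unadjusted p below 0.05 there were 32 (20.6%, against 14.3%). The median member lay 0.31 higher at 2 h than at 0 h on the log2 scale, against 0.05 over all transcripts tested, and 121 of 155 lay higher. With RPKM as deposited these medians were 0.16 and −0.11, so the members' offset from the other transcripts was nearly the same. The 2 libraries of 2 h did not show it equally. The median member stood at 25.9 scaled RPKM in replicate 1 and at 33.4 in replicate 2, and 104 of 155 were higher in replicate 2, against 49.2% of the tested predicted mRNAs. XM_002168126.2, at 2649 in replicate 1 and 5540 in replicate 2, is an example. XM_004206003.1, named here after its values were seen, is the extreme case, with 0.356 and 457 scaled RPKM at 2 h. Without replicate 1 of 0 h the median member lay 0.36 higher at 2 h, against 0.06 over all transcripts tested. Without replicate 2 of 0 h these medians were 0.24 and 0.03. Without replicate 1 of 2 h they were 0.44 and 0.05, and without replicate 2 of 2 h they were 0.21 and 0.05. The size of the offset thus depended on the library of 2 h used.

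The rule removed transcripts that were still high at 48 h and, in the same way, those already high at 0 h. This limits how far a member could lie above or below its 0 h level at 48 h. Of the 155, 122 lay within 1 of their 0 h mean on the log2 scale (78.7%, against 75.6% of the tested predicted mRNAs), and 72 within 0.5 (46.5%, against 47.2%). These shares were near those of the other transcripts. A further 25 members were higher by 1 or more and 8 lower by 1 or more. limma called 18 members higher (11.6%, against 9.22% of all transcripts tested) and 3 lower (1.94%, against 8.25%). The share called higher was near that of all transcripts. As the rule capped both times, the low share called lower cannot be read as a result about the members. With RPKM as deposited the split was 9 higher and 6 lower. Over all 14283 transcripts tested it was then 755 higher and 2443 lower, against 1317 and 1179 with scaling. The median member moved from 0.26 to −0.05, as scaling shifts all transcripts between these times. The median over all transcripts tested was −0.04 scaled and −0.39 as deposited. Leaving out replicate 2 of 0 h took the 21 calls to 10, and leaving out replicate 1 of 48 h took them to 32. The 48 h libraries were the least alike, with 46 of 155 members differing by more than 1 on the log2 scale between them, against 20.4% of the tested predicted mRNAs, and 3 members doing so at 6 h.

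Single members ended above or below where they began. XM_004208503.1 stood at 1.08 and 1.44 scaled RPKM at 0 h, 10.4 and 9.52 at 2 h, 70.3 and 75.6 at 4 h, 47.7 and 34.2 at 6 h, 25.8 and 42.3 at 12 h, and 25.3 and 7.27 at 48 h. Both libraries of 48 h lay above both of 0 h, and it was higher at 48 h by 2.71 on the log2 scale (SE 0.47, limma adjusted p = 0.00364), a call that held without any 1 library. The difference was 1.62 with a pseudocount of 5. XM_004206928.1 had 0.0571 and 0.00471 scaled RPKM at 0 h, 2.66 and 0.00395 at 2 h, 17.0 and 32.9 at 4 h, 45.9 and 55.0 at 6 h, 112 and 90.3 at 12 h, and 18.2 and 1.47 at 48 h. It climbed through all of the middle times and was higher at 48 h than at 0 h by 2.74 (SE 0.87, limma adjusted p = 0.0449). Its call was lost without 48 h replicate 1 (0.177), either library of 0 h (0.125 and 0.152) or any 1 of 4, 6 or 12 h (0.0618 to 0.0673), and also with a pseudocount of 5 (log2 difference 1.28, adjusted p = 0.0894), with no filter (0.0988) or with weights per library (0.148). The most abundant member, XM_002168126.2, was higher at 48 h by 1.22 (SE 0.35, limma adjusted p = 0.0314). That call was lost with RPKM as deposited (log2 difference 0.82, adjusted p = 0.0884), and without either library of 0 h (0.124 and 0.0967), either library of 4 h (0.0511 and 0.0513) or replicate 2 of 48 h (0.147), with no filter (0.106) or with weights per library (0.193).

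Others ended below their start. XM_002155631.2 stood at 17.6 and 10.5 scaled RPKM at 0 h, 3.08 and 25.4 at 2 h, 57.1 and 49.6 at 4 h, 51.4 and 52.6 at 6 h, 65.0 and 38.5 at 12 h, and below 0.001 and 0.523 at 48 h. It was level through the middle times and fell by 3.56 from 0 to 48 h (SE 0.71, limma adjusted p = 0.00685), a call that held without any 1 library but was lost with weights per library (adjusted p = 0.101). Its log2 difference ran from −5.77 with a pseudocount of 0.1 to −1.83 with a pseudocount of 5. XM_002166315.2 had 44.0 and 20.1 scaled RPKM at 0 h, 7.62 and 9.82 at 2 h, 557 and 250 at 4 h, 392 and 354 at 6 h, 288 and 165 at 12 h, and 7.09 and 9.21 at 48 h. Its 2 h libraries lay below those of 0 h before the step. From 0 to 48 h it fell by 1.76 (SE 0.45, limma adjusted p = 0.0189), a call that needed replicate 1 of 0 h (0.113 without it) and replicate 1 of 48 h (0.0596 without it) and was lost with weights per library (0.153). In a limma fit of only the 4 libraries compared, all 12 calls of named members were lost, at adjusted p from 0.0507 to 0.213.

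**Figure D5:**
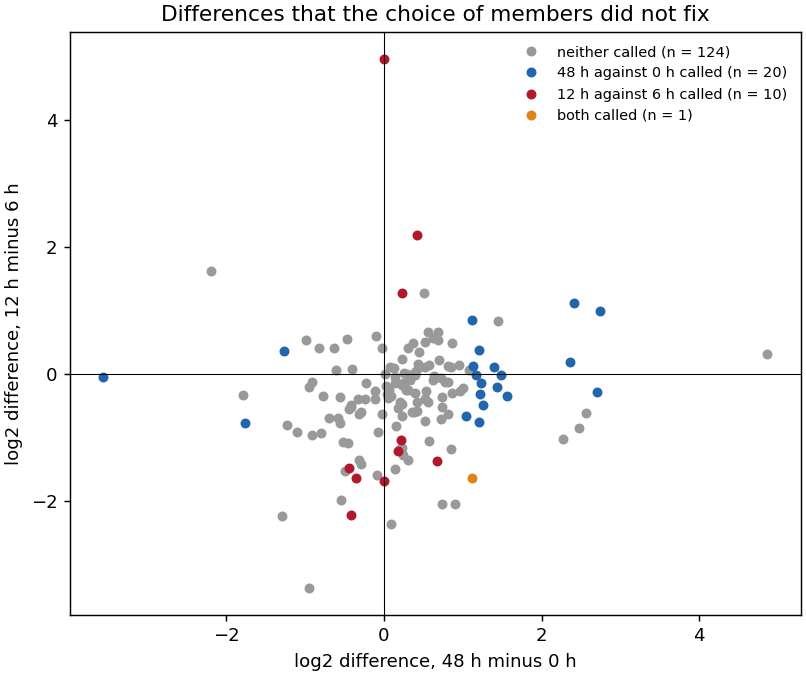
Each point is 1 of the 155 members: the x axis is the log2 difference between 48 h and 0 h and the y axis that between 12 h and 6 h, comparisons that share no library. Colours mark members called by limma in neither (124), in 48 h against 0 h (20), in 12 h against 6 h (10) or in both (1); most points lie within 1 of zero on both axes.

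Applied to 1 replicate at a time, the rule gave lists that overlapped the 155 in part. On the 6 libraries numbered 1 it picked 155 predicted mRNAs, of which 118 were members. In the 6 libraries numbered 2, 138 of them had a difference above 0 (89.0%, against 9.14% of all predicted mRNAs) and 73 reached 1 (47.1%, against 0.765%), with a median of 0.96. Chosen on replicate 2, 130 were picked, of which 97 were members. Of the 130, 113 were above 0 in replicate 1 (86.9%, against 9.02%) and 73 reached 1 (56.2%, against 0.912%), with a median of 1.15. The median over all predicted mRNAs was −0.59 in replicate 2 and −0.57 in replicate 1. The 73 that reached 1 in both replicates are the same transcripts in both directions.

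The mirrored course was less common. With the same cutoff turned round, 46 predicted mRNAs were low at 4, 6 and 12 h and high at 0, 2 and 48 h, against the 155 described here. Wnt3, the organizer ligand, did not share the course: it stood at 1.39 and 1.93 scaled RPKM at 0 h, 5.94 and 4.55 at 4 h, 6.02 and 7.75 at 12 h, and 11.4 and 9.47 at 48 h, its highest level.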

How the data were processed

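Strand-specific poly(A) RNA libraries, read as 50 bp single ends per the labels' protocols, were deposited by the authors as 1 RPKM table of 17353 transcripts in 12 libraries. The submitters' processing notes name Bowtie 0.12.8; build, read assignment and filters: not given in the sources used here. Between 1489 and 1968 values per library lay above 0 but below 0.001 RPKM, too small to stand for whole reads, so depth is unknown and transcripts of similar sequence are uncertain. Each library was scaled so that the median of the 11050 predicted mRNAs with at least 1 RPKM in every library was 20 (factors 0.701 to 0.937). A pseudocount of 1 was added before log2, which understates changes of low transcripts. Transcripts with at least 1 RPKM in 2 libraries, 14283 in all and all 155 members among them, were fitted in limma 3.58.1 (R 4.3.3) with a mean per time and a variance trend, two-sided. SE is that of limma. Comparisons were 6 with 4 h, 12 with 6 h, 12 with 4 h, 2 with 0 h and 48 with 0 h. The procedure was run on simulated data for 12 with 4 h only. In those data the spread of a transcript was the same at all times, unlike here. The labels do not say whether the pools of a time come from separate days. The p-values therefore measure only the spread between such pools, which may be technical. For each transcript this spread was shared over all times. The median replicate gap of tested predicted mRNAs was 0.44 at 48 h, 0.31 at 12 h and 0.18 at 6 h on the log2 scale. The SE can thus be too small for 48 h and, less so, for 12 h, and too large for 6 h.

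The members and the comparisons were chosen with earlier results of these data known. Named are the 2 members with the largest difference, the 2 most abundant, the 2 largest rises and falls among called members of each comparison, the transcripts at the cutoff, and Wnt3 and 2 non-coding transcripts as crossing values; exceptions are stated. Alternatives were deposited and median-ratio scaling, a pseudocount of 0.1 or 5, the filter dropped or set at 5 RPKM, weights per library, the 4 libraries compared alone, a replicate block, and leaving out each library.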

Additional observations from a re-analysis of the deposited data

How the results depend on the processing

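The number of transcripts passing the rule was 136 to 167 without any 1 library, 66 at a cutoff of 1.5 and 422 at 0.5. It stayed within 1.5 times of 155 in the other alternatives. With RPKM as deposited it was 140, of which 127 were among the 155. Taking the scaling median over all rows, an alternative chosen after seeing the data, gave 155, of which 154 were shared. Counts of called members were small and moved as follows. For 12 h against 4 h, the count of 1 was 2 with RPKM as deposited, 3 with a pseudocount of 5, and 0 with a pseudocount of 0.1, no filter, only the 4 libraries compared or a replicate block, and 0 to 4 without any 1 library. For 6 h against 4 h, the count of 2 was 1 with a pseudocount of 0.1, a filter at 5 RPKM or the replicate block, 4 with a pseudocount of 5, 9 with weights per library, 0 in the 4 libraries compared, and 0 to 3 without any 1 library. For 12 h against 6 h, the count of 11 was 17 with a pseudocount of 5, 0 in the 4 libraries compared, and 1 to 17 without any 1 library. For 2 h against 0 h, the count of 0 was 1 with no filter or a filter at 5 RPKM, 4 with weights per library, and 0 to 5 without any 1 library. For 48 h against 0 h, the count of 21 was 5 with weights per library, 2 in the 4 libraries compared, and 10 to 32 without any 1 library. Calls over all transcripts tested moved as well. With weights per library, 6 h against 4 h went from 27 to 139 and 48 h against 0 h from 2496 to 1243. In the 4 libraries compared, 48 h against 0 h went from 2496 to 322. There, 12 h against 6 h went from 345 to 2. With a pseudocount of 5, the count for 12 h against 6 h fell from 345 to 290, while that of the members rose. The cause of these moves was not tested. No named call changed direction in any alternative. Replicate differences went together little between times: over 15 pairs of times their correlation ran from −0.10 to 0.24, and 1 exceeded 0.1. The labels do not say whether a replicate number marks a shared day or batch, and these correlations cannot settle it. With the replicate block, 12 h against 6 h gave 12 members and 48 h against 0 h gave 19. With 2 pools a time and unknown depth, small differences within the middle phase could not be resolved.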

Other observations

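The same course was found among the predicted non-coding RNAs, which the rule leaves out. Of 364 such rows, 12 (3.3%) passed the cutoff, against 0.912% of the predicted mRNAs; the difference was not tested. XR_181873.1 was below 0.001 scaled RPKM in all 6 libraries of 0, 2 and 48 h and stood at 168 and 169 at 4 h, 216 and 412 at 6 h, and 346 and 131 at 12 h. XR_181757.1 had 48.3 and 78.9 scaled RPKM at 0 h, 48.2 and 188 at 2 h, 2131 and 2221 at 4 h, 3567 and 3043 at 6 h, 1893 and 1962 at 12 h, and 66.8 and 94.9 at 48 h. In both, every library of 4, 6 and 12 h lay above every library of the other times.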
